A study of Mus musculus with 12 samples.

Results

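The comparison sets 3 arrays of MGE cells collected from the mouse cortex at E14.5 against 3 arrays of CGE cells collected at E16.5, which are 6 of the 12 arrays in the study. All 6 were taken by their group label, and every gene above a filter on dim signal was tested. The genes named below were mostly those with the largest differences, overall or in their family, so their sizes are not typical of all genes. The medial ganglionic eminence (MGE) and the caudal ganglionic eminence (CGE) are the embryonic zones in which most cortical interneurons are born. The study's methods name embryos with Nkx2-1-Cre Tg and R26R-YFP fl/fl, and embryos with Nkx2-1-Cre;Dlx1-lox-Venus-lox, without saying which gave which cells. Read by their names, the first has a yellow reporter at the Rosa26 locus that Cre switches on in the Nkx2-1 lineage, which is that of the MGE. The second has a Venus reporter at Dlx1, flanked by lox sites, that the same Cre would remove, so that cells of the lateral eminence could keep it as well as CGE cells. Both genotypes carried Nkx2-1-Cre and a reporter, embryos were pooled, and the study used mice of both sexes on a mixed C57BL/6/CBA background. Cells were sorted from dissociated cortex, and RNA was amplified before hybridisation to Affymetrix Mouse430_2 arrays, on which a gene is read by 1 or more probe sets. Of 11358 gene symbols in the table, 8795 passed a filter on dim signal and were tested. The arrays differ both in lineage and in embryonic day, and these cannot be told apart.

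Interneurons of both origins leave the ventral forebrain and migrate tangentially into the cortex, steered by secreted guidance cues and by adhesion to cells and matrix, before they settle and form inhibitory synapses. Their identity is set by transcription factor families, many of them homeodomain proteins, that are switched on in the eminence and kept during migration. Somatostatin and parvalbumin types are known to descend from the MGE, and vasoactive intestinal peptide and reelin types largely from the CGE. The comparison asks which genes set the 2 migrating populations apart, here read family by family.

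All values are log2 intensities as deposited, and differences are MGE minus CGE on that scale, with the standard error of the fit over all 12 arrays. A gene was called at a Benjamini-Hochberg adjusted p under 0.05 in limma, and 885 genes were called, or 10.1% of those tested. Of these, 366 (4.16%) were higher in MGE cells and 519 (5.9%) were higher in CGE cells. The median difference over all genes was -0.02. Differences of at least 8-fold were more frequent towards CGE cells, with 32 genes against 13. The number of calls depended on the setting, with 818 and 996 under array weights, 214 and 318 without MGE E14.5 replicate 1, and 234 and 327 without replicate 2. Replicates 1 and 2 were the closest replicate pair of the study (r = 0.995), and with their mean taken as 1 array the counts were 224 and 322. In bulk RNA, fewer cells of a type and less RNA per cell cannot be told apart.

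Most tested lineage markers were higher in the cells of their label. Lhx6, the LIM homeodomain factor of MGE-derived interneurons, read 12.99, 12.92 and 12.81 on the MGE arrays and 10.24, 10.74 and 11.33 on the CGE arrays, while Nkx2-1 has no probe set with a single symbol in the table. Sp8, a zinc finger factor of CGE-derived interneurons, read 4.20, 4.30 and 4.42 in MGE cells, below the filter level of 7.10 to 7.17, against 11.78, 11.94 and 12.03 in CGE cells. Of 9 tested genes of an MGE lineage list 7 were higher in MGE cells, and of 10 tested genes of a CGE lineage list 10 were higher in CGE cells. Dlx1 (-0.70 ± 0.12, adjusted p = 0.00204) was higher in CGE cells, but the Venus reporter is named for this gene, so it may not be independent of the sort. Gt(ROSA)26Sor, the transcript of the locus of the yellow reporter, read 4.43 to 4.50 in MGE and 7.75 to 7.88 in CGE cells.

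Some arrays stood apart. CGE E16.5 replicate 1 had higher markers of the lateral eminence (Meis2 at 11.51 against 9.50 and 9.28, Foxp2 at 9.52 against 6.93 and 6.85, with a difference from MGE cells of -2.43 that was -1.56 without that array) and of cycling cells (Mki67 at 10.85 against 8.86 and 8.15). Replicate 3 of both groups had the Y-linked genes Eif2s3y and Kdm5d at 3.89 to 4.22, against 8.37 to 10.80 on the other 4 arrays. Without both replicates 3, the counts were 208 and 317. Of 13 tested markers of oligodendrocyte precursors, MGE cells had 6 at a higher and 1 at a lower level. The 6 were Olig1 (3.64), Pdgfra (2.51), Nkx2-2 (1.61), Sox10 (1.58), Cspg4 (1.34) and Olig2 (1.10), and the 1 was Ptprz1 (-1.63). Nkx2-2, Sox10 and Olig2 lay below the filter level on all 6 arrays. Summed linear levels of the 13 were 4162 to 4625 in MGE and 4374 to 5481 in CGE cells. Myt1, at 11.31 to 11.80 and not called, weighed most in these sums, so they say little of the 6. Of 13 pallial glutamatergic markers, 7 were below the filter and 4 were not in the table, and neither tested one was called. Of the tested markers, 0 of 3 for microglia and 0 of 1 for vascular cells were called in limma, where 2 microglial markers and 0 vascular ones had an unadjusted p under 0.05. All 3 microglial markers had the higher mean in CGE cells (Csf1r -1.13, Tyrobp -1.06 and C1qb -0.69) and lay below the filter level on all 6 arrays. The other probe set of C1qb was called higher in CGE cells (-1.28). Hba-a2, the erythroid gene in the table, read 12.60 to 12.79 on all 6 arrays. The part of these cells in the results below was not tested.

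Calls were unevenly spread over gene families. Of 85 families by symbol, with 2048 tested genes, those with at least 14 tested members ran from 78.6% called, for netrins, Slits, Robos and their partners, to 0% for SR proteins and hnRNPs, of which 3 of 30 had an unadjusted p under 0.05 in limma. Families of transcription factors, guidance cues, adhesion molecules, matrix proteins, receptors and channels lay mostly above the 10.1% of all genes. Families for ribosomes, the respiratory chain, the proteasome and DNA replication lay below that share. Among smaller families, a mixed homeobox family reached 80% (4 of 5 tested, of 12 in the table). Its calls were Prox1, Pax6 and Vax1, higher in CGE cells, and Nkx2-2, higher in MGE cells. Nkx2-2, also a marker of oligodendrocyte precursors, lay below the filter level on all 6 arrays. It passed the filter through MGE arrays at E18.5 (mean 10.78).

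**Figure D1:**
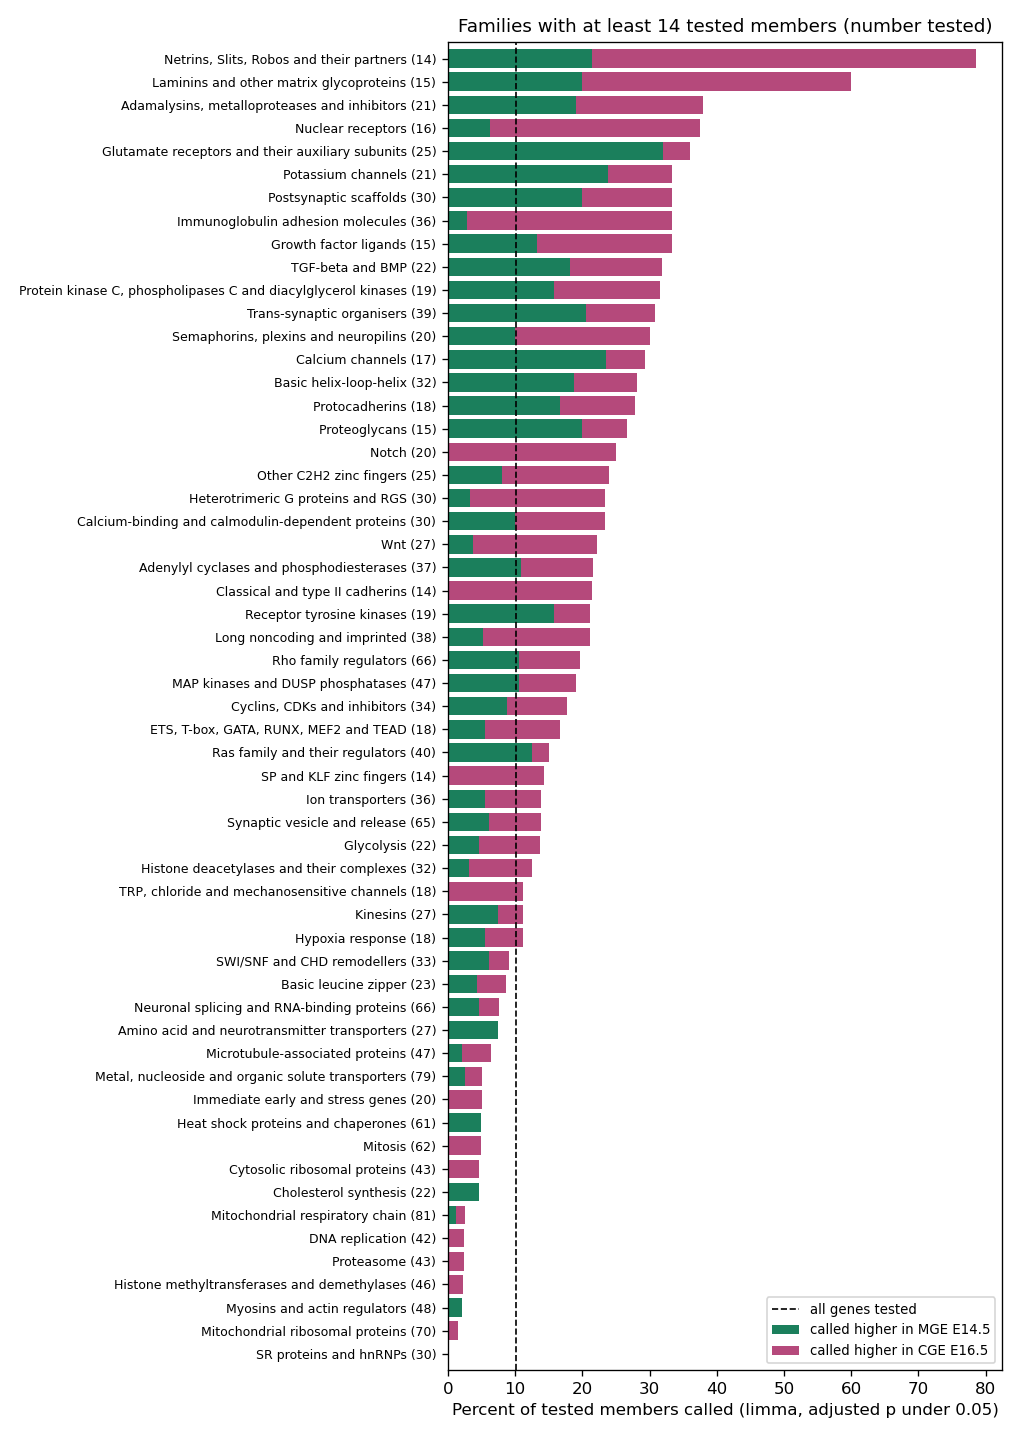
Percent of tested members called (x axis, limma, adjusted p under 0.05) in each family with at least 14 tested members (y axis, number tested in brackets), split into members higher in MGE E14.5 and in CGE E16.5 cells, with a dashed line at the 10.1% of all genes tested. The netrin, Slit and Robo family reached 78.6% and the matrix glycoproteins 60%, while SR proteins and hnRNPs had 0%.

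Among transcription factors, the TALE homeobox family, whose members pair with other homeodomain proteins on DNA, had 6 of 9 tested members called, or 66.7%. Pbx3 read 6.16, 6.20 and 5.87 on the MGE arrays against 11.48, 10.92 and 11.01 in CGE cells. The groups lay far apart, with a 33.4-fold difference (-5.06 ± 0.19, adjusted p = 2.23e-08). Meis2 (-3.38 ± 0.53), Meis1 (-1.33 ± 0.27) and Pknox1 (-0.75 ± 0.12) were higher in CGE cells as well. Meis1 read 4.82 to 4.98 in MGE and 6.19 to 6.29 in CGE cells, below the filter level on all 6 arrays. It passed the filter through E18.5 arrays. Meis2 was -2.68 and still called without CGE E16.5 replicate 1, and the call of Meis1 was lost without both replicates 3. Mkx, the Mohawk factor, went the other way, at 7.70, 7.39 and 7.25 on the MGE arrays against 4.09, 4.75 and 5.49 in CGE cells (2.67 ± 0.34, adjusted p = 0.000338). Pknox2 was also higher in MGE cells (1.00 ± 0.19), opposite to its paralog Pknox1, although its call was lost without both replicates 3. All 6 kept their call and direction at E18.5.

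The nuclear factor I genes, which encode CTF-type factors known for the switch of neural progenitors to gliogenesis and for neuronal maturation, had 3 of 4 members called, each with the higher level in CGE cells. Nfix read 10.27, 9.89 and 8.26 on the MGE arrays against 12.81, 12.86 and 12.79 in CGE cells (-3.34 ± 0.40, adjusted p = 0.000208). Its spread lay within the MGE arrays, of which replicate 3 was the lowest. The groups did not overlap, as for 33.1% of all genes tested. Nfib (-2.62 ± 0.22) and Nfia (-2.28 ± 0.25) had the same direction, and all 4, 6 and 5 other probe sets of Nfix, Nfib and Nfia were called the same way. Nfic read 7.14 to 7.62 in MGE and 7.26 to 7.79 in CGE cells, and was not called (-0.11 ± 0.28, adjusted p = 0.866). In MGE cells at E18.5 the mean of Nfix was 12.10, that of Nfib 11.24 and that of Nfia 11.52, against 9.47, 9.82 and 9.67 at E14.5, while the CGE means changed by less, from 12.82, 12.43 and 11.95 at E16.5 to 13.28, 12.52 and 11.85.

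The CUT and POU genes divided by class. The CUT factors Cux2, which read 13.22, 13.30 and 13.15 in MGE against 11.19, 11.59 and 12.05 in CGE cells (1.61 ± 0.22), Satb1 (0.75 ± 0.11) and Cux1 (0.68 ± 0.13) were higher in MGE cells. Satb1 is known for the maturation of somatostatin interneurons. All 3 of its other probe sets were called the same way, against 2 of 6 for Cux1 and 1 of 2 for Cux2. The POU class III genes Pou3f4 (-1.69 ± 0.22) and Pou3f2 (-1.25 ± 0.26), known as Brn4 and Brn2, were higher in CGE cells. Pou3f4 read 7.68 to 8.46 in MGE cells and 9.27 to 10.01 in CGE cells, and its other probe set was called the same way. The other probe set of Pou3f2 was not called (-1.15).

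**Figure D2:**
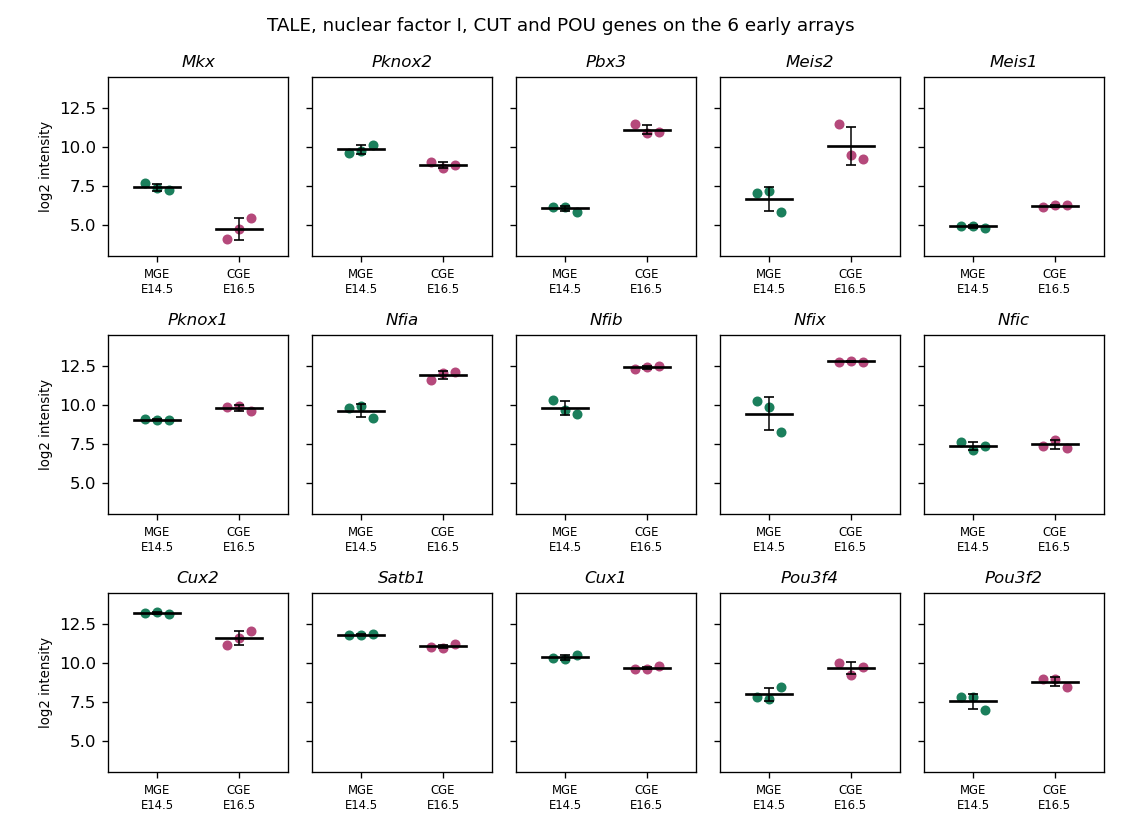
Log2 intensity (y axis) of TALE, nuclear factor I, CUT and POU genes on the 3 MGE E14.5 and 3 CGE E16.5 arrays (x axis), with a point for each array and the mean ± SD in black. Mkx, Pknox2, Cux2, Satb1 and Cux1 lie higher in MGE cells, Nfic overlaps between the groups, and the other genes lie higher in CGE cells.

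POU factors read an octamer, ATTTGCAT or its complement ATGCAAAT, so the 250 bases before each RefSeq start (GRCm38.p6) were searched for it on both strands. It was in 1.08% of 9278 such windows of tested genes, in 3.14% of the 573 windows of CGE-high genes and in 0.966% of the 414 windows of MGE-high genes. The 17 CGE-high genes with it included Synpr, Tnc, Hdac9, Pde1c, Egln3, Dll1 and Gadd45g, and their stretches are shown so that the letters can be seen in place, with the octamer in capitals. They are written along the strand of the gene, from 167 (Synpr), 116 (Tnc), 49 (Hdac9), 16 (Pde1c), 179 (Egln3), 219 (Dll1) and 103 (Gadd45g) bases before the start, counted to the first base of the octamer.
Synpr, chr14:13453775-13453814 (+): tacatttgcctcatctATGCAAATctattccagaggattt
Tnc, chr4:64047108-64047147 (-): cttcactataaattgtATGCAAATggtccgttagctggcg
Hdac9, chr12:34528915-34528954 (-): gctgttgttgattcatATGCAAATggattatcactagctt
Pde1c, chr6:56369635-56369666 (-): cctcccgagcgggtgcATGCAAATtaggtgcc
Egln3, chr12:54204030-54204069 (-): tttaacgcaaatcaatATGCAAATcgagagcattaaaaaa
Dll1, chr17:15376019-15376058 (-): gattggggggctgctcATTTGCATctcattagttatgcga
Gadd45g, chr13:51846556-51846595 (+): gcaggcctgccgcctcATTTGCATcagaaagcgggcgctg
Synpr, the synaptic vesicle protein gene synaptoporin, had the largest difference of these, 74.6-fold higher in CGE cells (-6.22 ± 0.24). Of 13 motifs counted, the homeodomain core TAATTA was in 2.32% of all windows, 0.966% of MGE-high and 2.79% of CGE-high windows. The nuclear receptor element AGGTCA was in 9.82%, 12.8% and 10.5%, in the same order. The TALE motif TGACAG was in 13.3%, 9.42% and 11.5%, and the palindrome of nuclear factor I in 2, 1 and 0 windows. Motifs were chosen after values were seen, and differences in share, that of the octamer included, were not tested. A match describes the letters and does not show binding. The calls of Dll1 and Gadd45g were lost without MGE E14.5 replicate 1 or 3 or CGE E16.5 replicate 1 or 3, among other settings.

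Other homeodomain and zinc finger genes with large differences were higher in CGE cells. Zfhx3, a giant zinc finger homeodomain factor, read 5.14, 5.41 and 4.93 in MGE against 10.65, 8.93 and 8.39 in CGE cells (-4.16 ± 0.70), and -3.49 without CGE E16.5 replicate 1, although its other probe set was not called. Sall1, a spalt factor, was 24.5-fold higher (-4.61 ± 0.31), St18, a MYT-type factor, 12.6-fold (-3.65 ± 0.18), and Pax6, the paired factor of radial glia and olfactory interneurons, differed by -4.27 ± 0.32. Zeb1 (-2.07 ± 0.28), known for repressing epithelial genes, and Vax1 (-1.77 ± 0.20), a ventral forebrain factor, were also higher in CGE cells. Tshz3, a teashirt factor, was the zinc finger homeobox gene higher in MGE cells, at 11.99, 11.78 and 12.01 against 9.21, 9.52 and 10.33 (2.24 ± 0.35). Id4 was higher in CGE (-2.01 ± 0.15) and Id3 higher in MGE cells (1.02 ± 0.21), although both encode inhibitors of basic helix-loop-helix factors.

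Nuclear receptors, the factors that bind lipids and steroids, had 5 of 16 tested members higher in CGE cells and 1 higher in MGE cells. Nr3c2, the mineralocorticoid receptor, read 4.04, 4.13 and 4.43 in MGE against 8.51, 9.04 and 8.92 in CGE cells, a 24.6-fold difference (-4.62 ± 0.28). The orphan receptors Nr2f2 (-2.79 ± 0.18) and Nr2e1 (-1.56 ± 0.13), known as COUP-TFII and Tlx, followed it. Rora, the retinoid-related orphan receptor, was higher in MGE cells, at 9.22, 9.08 and 9.30 against 6.61, 6.43 and 6.98 (2.52 ± 0.24), and all 5 of its other probe sets were called the same way. Among the MTG co-repressors, Cbfa2t3 (1.5 ± 0.20) was higher in MGE cells, and Runx1t1 (0.48 ± 0.17, adjusted p = 0.11) and Cbfa2t2 (-0.28 ± 0.14, adjusted p = 0.274) were not called. Runx1t1, which encodes MTG8, read 12.65, 12.55 and 12.62 in MGE against 12.18, 11.95 and 12.27 in CGE cells, without overlap, as for 33.1% of all genes tested. It was called higher in MGE cells in 5 of 25 other settings, such as the fit to the 6 early arrays and the mean of its probe sets, by 2 of its 4 other probe sets, and at E18.5 (0.96, adjusted p = 0.0016).

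Chromatin families lay on both sides of the 10.1% of all genes. Histone methyltransferases and demethylases had 1 of 46 tested members called (2.17%), and 0 in limma without replicate 1 or 2 of MGE E14.5 or replicate 1 or 3 of CGE E16.5. Of 32 histone deacetylase and complex genes 4 were called, which was 12.5%. SWI/SNF and CHD remodellers had 3 of 33 called (9.09%) and DNA methylation genes 2 of 11 (18.2%), counts that were as low as 1 and 0 with 1 MGE E14.5 array left out. The class IIa deacetylase gene Hdac9 read 5.14, 4.87 and 4.73 in MGE against 7.37, 7.32 and 7.37 in CGE cells (-2.44 ± 0.15, adjusted p = 8.78e-07), and Hdac7 was also higher in CGE cells (-0.99 ± 0.13). Hdac4, in contrast, was higher in MGE cells (0.74 ± 0.15), although its other probe set was not called. Of the remodeller calls 2 were higher in MGE cells, and Chd7, known from CHARGE syndrome, was the 1 higher in CGE cells (-1.16 ± 0.13). The 2 DNA methylation calls were higher in MGE cells.

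Guidance families had between 18.2% (Eph receptors and ephrins) and 78.6% of their members called. Of 14 tested netrins, Slits, Robos and partners, 8 were higher in CGE and 3 in MGE cells, and the count of 11 was 7 without any 1 of the MGE E14.5 arrays or without CGE E16.5 replicate 2. Slit1, a secreted repellent, read 6.75, 6.67 and 6.98 in MGE against 10.67, 10.57 and 10.56 in CGE cells, a 13.9-fold difference (-3.80 ± 0.19, adjusted p = 1.72e-07). Its receptor gene Robo1 was higher in the same cells, at 11.23, 11.05 and 11.02 against 9.60, 9.44 and 9.41 (-1.62 ± 0.22). The netrin and FLRT receptor gene Unc5b (-1.87 ± 0.27) and the FLRT genes Flrt1 (-1.62 ± 0.20) and Flrt3 (-1.34 ± 0.19) went with them, as did the netrin gene Ntn4 (-1.20 ± 0.17). Those higher in MGE cells were Unc5c (1.45 ± 0.39), Dcc (0.97 ± 0.27) and Rgmb (0.62 ± 0.16), receptors for netrins and a repulsive guidance molecule. All 3 lost their call without any 1 of the MGE E14.5 arrays or without CGE E16.5 replicate 2, and Unc5c read 8.94 on CGE E16.5 replicate 3 against 7.34 and 7.35.

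Semaphorins are repellents read by plexins and neuropilins, and 6 of 20 tested genes were called, 2 of them higher in MGE and 4 in CGE cells. Sema3a was higher in MGE cells, at 10.53, 10.10 and 10.44 against 8.14, 7.73 and 7.93 (2.42 ± 0.24, adjusted p = 4.3e-05). The receptor genes Plxna4 (-1.85 ± 0.23), Nrp2 (-1.58 ± 0.30) and Plxnc1 (-1.38 ± 0.16) were higher in CGE cells, where Nrp2 read 10.37, 9.91 and 10.46 against 8.60 to 8.72 in MGE cells. The call of Nrp2 was lost without both replicates 3, and the semaphorin gene Sema4b was also higher in CGE cells (-0.46 ± 0.11) but lost its call in 8 of 25 other settings. Plxdc2, a plexin-domain transmembrane gene, was higher in MGE cells (2.55 ± 0.35). Epha4, an ephrin receptor, was higher in CGE cells (-1.60 ± 0.29), with 11.64 on CGE E16.5 replicate 1 against 10.55 and 10.32, and was -1.20 and called without it.

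Among ligands for growth and migration, the chemokine gene Cxcl14 read 5.05, 4.44 and 4.58 in MGE against 9.42, 10.04 and 9.54 in CGE cells (-4.98 ± 0.51, adjusted p = 6.13e-05). Ackr3, a scavenging receptor for the chemokine CXCL12, was higher in MGE cells (1.90 ± 0.35). Kitl, the ligand of the KIT receptor, was 10.6-fold higher in MGE cells, with 9.0 to 9.29 against 5.65 to 5.77 (3.41 ± 0.38), and all 3 of its other probe sets were called the same way. Wnt5a, a ligand of non-canonical Wnt signalling, was 20.2-fold higher in CGE cells, at 11.52, 11.64 and 11.74 against 7.36, 7.03 and 7.51 (-4.34 ± 0.22). The Wnt receptor gene Fzd1 was higher there too (-1.24 ± 0.23), and the planar polarity genes Prickle1 (-1.31 ± 0.22) and Prickle2 (1.35 ± 0.23) differed in opposite directions.

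The transforming growth factor family had 4 of 22 tested members higher in MGE cells and 3 with the reverse. One of the 4, Bmp7, lay below the filter level on all 6 arrays and passed the filter through MGE arrays at E18.5 (mean 9.48). Tgfb3 read 9.34, 9.15 and 9.36 in MGE against 7.05, 7.27 and 7.08 in CGE cells (2.15 ± 0.11), and Smad3, a transducer of its receptors, was higher with it (1.48 ± 0.21). Acvr1, a type I receptor, was higher in CGE cells (-0.77 ± 0.13). In the Notch pathway, by which neighbouring cells restrain each other's differentiation, 5 of 20 tested members were higher in CGE cells and 0 in MGE cells in limma, against 9 and 0 at an unadjusted p under 0.05. Notch2 (-1.79 ± 0.21), the ligand gene Jag1 (-1.59 ± 0.17) and the fringe gene Mfng (-0.98 ± 0.12) were among them, and the count was 3 without MGE E14.5 replicate 1 or 3 or CGE E16.5 replicate 1. Of 19 tested receptor tyrosine kinase genes 3 were higher in MGE cells and 1 in CGE cells. The 3 included Pdgfra, also a marker of oligodendrocyte precursors, and Erbb3, which lay below the filter level on all 6 arrays. Erbb3 passed the filter through MGE arrays at E18.5 (mean 8.61). The 1 higher in CGE cells was Met, the receptor of hepatocyte growth factor (-3.39 ± 0.28).

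Adhesion families differed in the balance of their calls. Of 36 immunoglobulin adhesion genes 11 were higher in CGE cells (30.6%) and 1 in MGE cells. Ncam2, a paralog of neural cell adhesion molecule 1, read 6.08, 6.04 and 6.65 in MGE against 8.49, 8.25 and 8.58 in CGE cells (-2.18 ± 0.21), and Sdk2 (-2.22 ± 0.24), Igsf8 (-1.59 ± 0.21), Negr1 (-1.51 ± 0.13) and Dscam (-1.18 ± 0.23) had the same direction, the last losing its call without both replicates 3. Cntn1, the GPI-anchored contactin, was the member higher in MGE cells, at 8.89, 8.96 and 9.05 against 6.53, 6.41 and 6.26 (2.57 ± 0.25). Of 14 cadherins 3 were called, all of them higher in CGE cells. These were Cdh4, the R-cadherin gene (-2.64 ± 0.36), Fat4 (-2.36 ± 0.19) and the calsyntenin gene Clstn2 (-1.76 ± 0.28). Protocadherins went both ways. Pcdh19, known from an X-linked epilepsy, read 11.15, 10.88 and 11.35 in MGE against 8.46, 8.80 and 9.44 in CGE cells (2.23 ± 0.33), while Pcdh18 (-2.40 ± 0.27) and Pcdh9 (-1.52 ± 0.22) were higher in CGE cells.

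Trans-synaptic organisers, which link the membranes of the 2 sides of a synapse, had 8 of 39 tested members higher in MGE and 4 in CGE cells. The neurexophilin genes Nxph1 and Nxph2, secreted ligands of alpha-neurexins, were both higher in MGE cells. Nxph1 read 11.71, 11.57 and 11.67 against 7.75, 8.40 and 9.10 in CGE cells, a 9.39-fold difference (3.23 ± 0.29), and Nxph2 differed by 2.81 ± 0.53. Adgrl2, a latrophilin gene, was higher in MGE cells as well (2.02 ± 0.21). Cbln2, a cerebellin that joins neurexins to postsynaptic receptors, was higher in CGE cells, at 9.04, 9.09 and 8.95 against 5.23, 5.63 and 5.49 (-3.58 ± 0.24), whereas its paralog Cbln1 was higher in MGE cells (1.07 ± 0.22). Tenm4, a teneurin (-1.57 ± 0.23), and Slitrk3 (-1.31 ± 0.19) were higher in CGE cells, and the related Slitrk4 (1.41 ± 0.27) and Slitrk5 (1.29 ± 0.27) in MGE cells, though both of these lost their call without both replicates 3.

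Among genes for extracellular matrix and its remodelling, 9 of 15 matrix glycoproteins were called (60%), 6 of them higher in CGE cells. Thbs1, which encodes thrombospondin 1, was the member with the largest difference towards MGE cells, at 9.95, 9.60 and 9.60 against 5.53, 6.71 and 7.02 (3.29 ± 0.43). Spon1, the F-spondin gene, read 6.49, 7.05 and 7.15 in MGE against 10.55, 9.46 and 9.09 in CGE cells (-2.80 ± 0.35, and -2.38 without CGE E16.5 replicate 1), although its other probe set was not called. Tnc, tenascin C (-2.48 ± 0.46), Fbln2 (-1.91 ± 0.34) and Smoc1 (-1.84 ± 0.27) were also higher in CGE cells. Proteases and their inhibitors had 8 of 21 members called, and 5 without MGE E14.5 replicate 2 or 3 or CGE E16.5 replicate 2. They divided by gene, with Mmp17, at 9.85, 9.71 and 9.62 against 7.96, 7.87 and 8.23 (1.70 ± 0.12), and Mmp2 (1.56 ± 0.17) higher in MGE cells, and Adamts3 (-2.76 ± 0.23), Mmp14 (-1.66 ± 0.26) and the inhibitor gene Timp2 (-1.29 ± 0.19) higher in CGE cells. Mmp14 encodes a membrane-bound protease that is known to activate pro-MMP2. Among cell surface receptors for matrix, Itgb8 read 6.08, 5.95 and 5.39 in MGE against 8.60, 8.62 and 8.64 in CGE cells (-2.81 ± 0.20, adjusted p = 4.29e-06), and Itga6 was higher there too (-1.62 ± 0.22). Gjc1, a gap junction connexin gene, was 4.42-fold higher in MGE cells, with 9.28 to 9.50 against 7.13 to 7.28.

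Among genes for excitability, glutamate receptors and their auxiliary subunits had 8 of 25 tested members higher in MGE and 1 in CGE cells, and 9 were also called with any 1 array left out. Grm5, a metabotropic receptor, read 10.66, 10.35 and 10.82 in MGE against 7.09, 6.55 and 6.33 in CGE cells (3.96 ± 0.38). Neto1, an auxiliary subunit of kainate receptors (2.51 ± 0.33), the kainate receptor genes Grik1 (3.20 ± 0.24) and Grik2 (1.40 ± 0.20), and the AMPA receptor genes Gria1 (2.55 ± 0.31), Gria4 (1.65 ± 0.15) and Gria3 (1.25 ± 0.20) were higher with it, as was Cacng3, a transmembrane AMPA receptor regulator (2.55 ± 0.36). Grin2d, an NMDA receptor subunit, was the member higher in CGE cells, at 11.38, 11.39 and 11.51 against 7.86, 7.55 and 7.8 (-3.69 ± 0.34).

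Of 17 calcium channel genes 4 were higher in MGE cells and 1 in CGE cells. The alpha-2-delta subunits, which carry channels to the membrane, differed in opposite directions. Cacna2d2 read 11.29, 11.19 and 10.99 in MGE against 9.33, 9.44 and 9.72 in CGE cells (1.66 ± 0.24), and Cacna2d3 read 7.45, 6.78 and 7.49 against 10.16, 10.03 and 10.18 (-2.88 ± 0.27). Of 21 potassium channel genes 5 were higher in MGE and 2 in CGE cells, a count of 7 that fell to 4 without MGE E14.5 replicate 1 or 2 or CGE E16.5 replicate 1. Kcnmb2, a subunit of calcium-activated channels, was higher in MGE cells (2.43 ± 0.30), as were Kcnk2, the TREK1 leak channel (1.47 ± 0.15), and Scn1a, a sodium channel (1.66 ± 0.24). Kcns2 (-1.63 ± 0.23) and Kcnn1 (-1.62 ± 0.30), a silent subunit and an SK channel, were higher in CGE cells. Of 8 GABA and glycine receptor genes 0 were higher in MGE cells in limma (2 at an unadjusted p under 0.05), and Gabra2 was higher in CGE cells (-0.79 ± 0.18), a call that was lost without MGE E14.5 replicate 1 or 2.

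Receptors for monoamines, acetylcholine, purines and cannabinoids had 3 of 6 tested members called, each with the higher level in CGE cells. Cnr1, the cannabinoid receptor 1, read 7.54, 7.12 and 7.16 in MGE against 11.13, 11.34 and 11.34 in CGE cells, a 15.9-fold difference (-3.99 ± 0.31). Htr3a, an ionotropic serotonin receptor by which CGE-derived interneurons are known, differed by -3.93 ± 0.25, and Chrna7, a nicotinic receptor, by -2.48 ± 0.22. Adcyap1r1, the receptor of the peptide PACAP, was also higher in CGE cells (-1.99 ± 0.27).

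Of 10 tested peptide genes 3 were higher in MGE and 1 in CGE cells. Sst, the somatostatin gene, read 12.12, 12.02 and 12.48 in MGE against 8.17, 9.44 and 10 in CGE cells (3.00 ± 0.64, adjusted p = 0.0107). Npy read 10.58 to 10.70 against 7.83 to 8.63 (2.40 ± 0.45, adjusted p = 0.00456). Adm, which encodes the vasodilator peptide adrenomedullin, varied most within its groups, at 10.25, 11.03 and 8.97 against 7.21, 5.01 and 4.51 (4.50 ± 1.02, adjusted p = 0.0147), and its call was lost in 6 of 25 other settings. Pnoc, the gene of nociceptin, was higher in CGE cells (-2.91 ± 0.35). The 120 bases before the RefSeq starts (GRCm38.p6) of the MGE-high peptide genes are shown because cyclic AMP is a known regulator of Sst. Capitals mark the cyclic AMP response element TGACGTCA, whose first base is 48 bases before the start of Sst.
Sst, chr16:23890845-23890964 (-): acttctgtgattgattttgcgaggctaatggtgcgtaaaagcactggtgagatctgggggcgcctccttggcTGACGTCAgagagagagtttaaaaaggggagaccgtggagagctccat
Npy, chr6:49822590-49822709 (+): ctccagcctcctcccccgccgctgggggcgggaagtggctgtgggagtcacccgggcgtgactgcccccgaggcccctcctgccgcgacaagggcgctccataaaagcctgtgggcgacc
Adm, chr7:110627537-110627656 (+): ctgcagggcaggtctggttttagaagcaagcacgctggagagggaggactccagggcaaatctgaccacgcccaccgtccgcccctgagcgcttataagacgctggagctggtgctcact
The element was in 2.81% of all windows of 250 bases, in 0.966% of MGE-high and in 2.79% of CGE-high windows, and these letters are not in the windows of Npy and Adm.

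Inside the cell, signalling families that act on cyclic nucleotides and G proteins held calls in both directions. Of 30 G protein and RGS genes 6 were higher in CGE and 1 in MGE cells. Rgs16, which shortens G protein signals, read 7.66, 7.32 and 8.38 in MGE against 10.18, 10.53 and 10.72 in CGE cells (-2.69 ± 0.25), and Gng4, a gamma subunit, differed by -2.28 ± 0.34. Rapgef3, which encodes the cyclic AMP sensor EPAC1, read 5.15, 4.52 and 4.84 in MGE against 8.91, 8.52 and 8.94 in CGE cells, a 15.5-fold difference (-3.96 ± 0.18). The phosphodiesterase genes Pde1c (-2.75 ± 0.27) and Pde4b (-1.66 ± 0.30) and the adenylyl cyclase gene Adcy2 (-1.29 ± 0.24) were higher in CGE cells. Adcy1, another cyclase, was higher in MGE cells (1.65 ± 0.40), but lost its call without replicate 1 or 3 of MGE E14.5 or replicate 1 or 2 of CGE E16.5. Tiam2, an activator of Rac (-2.71 ± 0.31), was higher in CGE cells, and Dock9, an activator of the GTPase CDC42 (2.06 ± 0.32), and Map3k20, a stress kinase (2.58 ± 0.20), in MGE cells.

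Genes for release and for scaffolds behind the synapse differed in share. Of 65 vesicle and release genes 9 were called, or 13.8%, near the 10.1% of all genes, and 4 or 5 without any 1 of MGE E14.5 replicates 1 to 3 or CGE E16.5 replicates 1 and 2. Synpr had the largest difference, reading 4.13, 4.36 and 4.69 in MGE against 10.19, 10.82 and 10.84 in CGE cells. Cadps2, which primes dense-core vesicles (2.08 ± 0.21), and the calcium sensor gene Syt1 (1.31 ± 0.17) were higher in MGE cells. Of 30 scaffold genes 6 were higher in MGE and 4 in CGE cells, or 33.3%, a count of 10 that was 6 without MGE E14.5 replicate 2 or 3 or CGE E16.5 replicate 1. Dlgap1 (2.06 ± 0.28) and Dlgap2 (2.33 ± 0.32) were higher in MGE cells and Dlgap3 (-1.24 ± 0.18) in CGE cells.

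**Figure D3:**
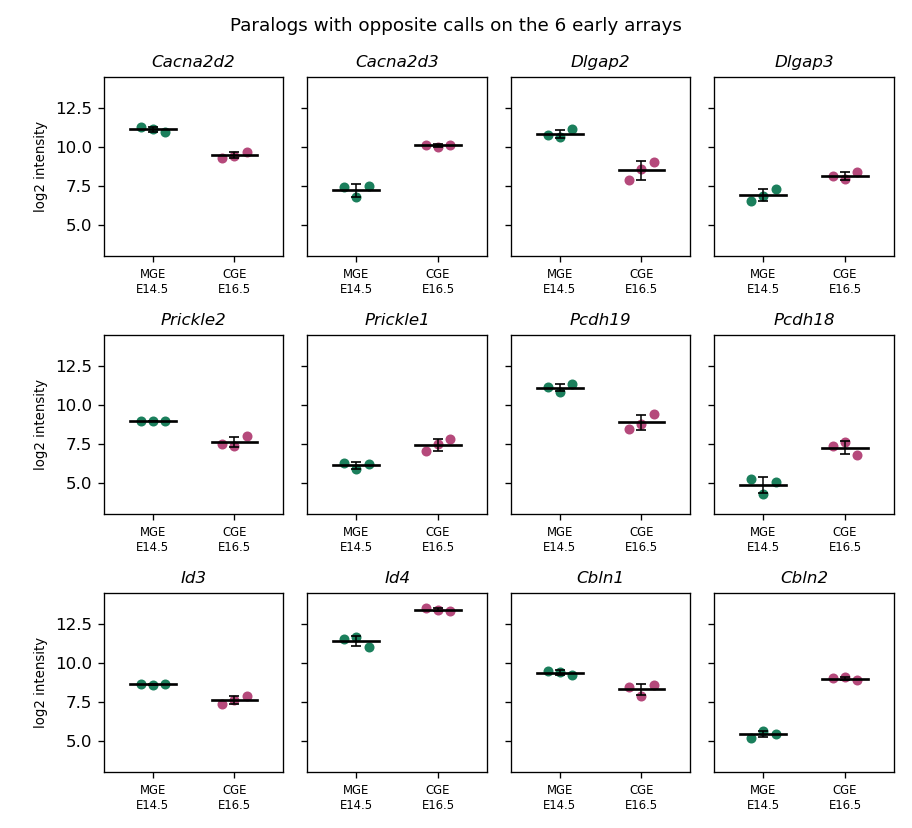
Log2 intensity (y axis) of paralogs that were called in opposite directions, on the 3 MGE E14.5 and 3 CGE E16.5 arrays (x axis), with a point for each array and the mean ± SD in black. The first gene of each pair is higher in MGE and the second in CGE cells, by 1.66 for Cacna2d2 and -2.88 for Cacna2d3. The genes were picked by these calls, so their direction follows from the choice. The groups do not overlap for any gene shown, which also holds for 33.1% of all genes tested.

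Several families that every cell uses had few calls. Cytosolic ribosomal protein genes had 2 of 43 called (4.65%), the mitochondrial respiratory chain 2 of 81 (2.47%), mitochondrial ribosomal proteins 1 of 70 (1.43%) and the proteasome 1 of 43 (2.33%). Rpl14 was one of them, at 8.56, 8.66 and 8.41 in MGE against 9.81, 9.73 and 9.77 in CGE cells (-1.23 ± 0.15). Of 43 ribosomal protein genes 38 had a negative difference, with a median of -0.14 against -0.02 for all genes. Glycolysis, in contrast, had 3 of 22 called (13.6%), though 1 without MGE E14.5 replicate 1 or 2 or CGE E16.5 replicate 2, and the hypoxia response had 2 of 18 (11.1%). In the cytoskeleton, 1 of 48 myosin and actin regulators and 3 of 47 microtubule-associated proteins were called, against 3 of 27 kinesins (11.1%) and 1 of 10 tubulins (10%).

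Cell cycle families differed in share as well. DNA replication genes had 1 of 42 members called (2.38%) and mitosis genes 3 of 62 (4.84%), all of them higher in CGE cells, and the 3 mitosis calls were 0 without any 1 of the MGE E14.5 arrays. CGE E16.5 replicate 1 lay above the other CGE arrays for Mki67 and most cycling markers, and summed linear levels of 14 such genes ran from 6555 to 7942 in MGE and from 7403 to 13308 in CGE cells. Cyclins, cyclin-dependent kinases and their inhibitors had 6 of 34 called (17.6%), 3 in each direction, and 3 in all without MGE E14.5 replicate 1 or 2 or CGE E16.5 replicate 3. Cdkn1c, the inhibitor p57, read 10.17, 10.05 and 10.15 in MGE against 8.33, 7.71 and 8.36 in CGE cells (1.99 ± 0.18), and Ccnd1, cyclin D1, was higher in MGE cells too (1.48 ± 0.19). Cdkn1a, the inhibitor p21 (-0.94 ± 0.22), and Ccnd2, cyclin D2 (-0.72 ± 0.20), were higher in CGE cells, although both calls were lost without MGE E14.5 replicate 1 or 2 and in other settings, and Ccnd2 was -0.47 without CGE E16.5 replicate 1.

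The same lineages were also measured on one day, E18.5, on the other 6 arrays, where 22.8% of genes were called. Of the 366 genes higher in MGE cells early, 243 (66.4%) were called in the same direction at E18.5, which was 21.3% of the E18.5 list. Of the 519 higher in CGE cells, 225 (43.4%) were, which was 26% of the E18.5 list. In the opposite direction 5 and 39 were called. Oligodendrocyte precursor markers were much higher in MGE cells at E18.5, with Pdgfra at 6.48 and Olig1 at 6.42 against 2.51 and 3.64 early, and their part in the E18.5 values was not tested. Genes that kept a difference of like size included Sp8, Synpr (-6.14 at E18.5), Cbln2 (-2.98), Hdac9 (-2.29), Nxph1 (3.41) and Tgfb3 (1.76). They are named for their like values on both sides, so no count of changes was drawn from them.

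**Figure D4:**
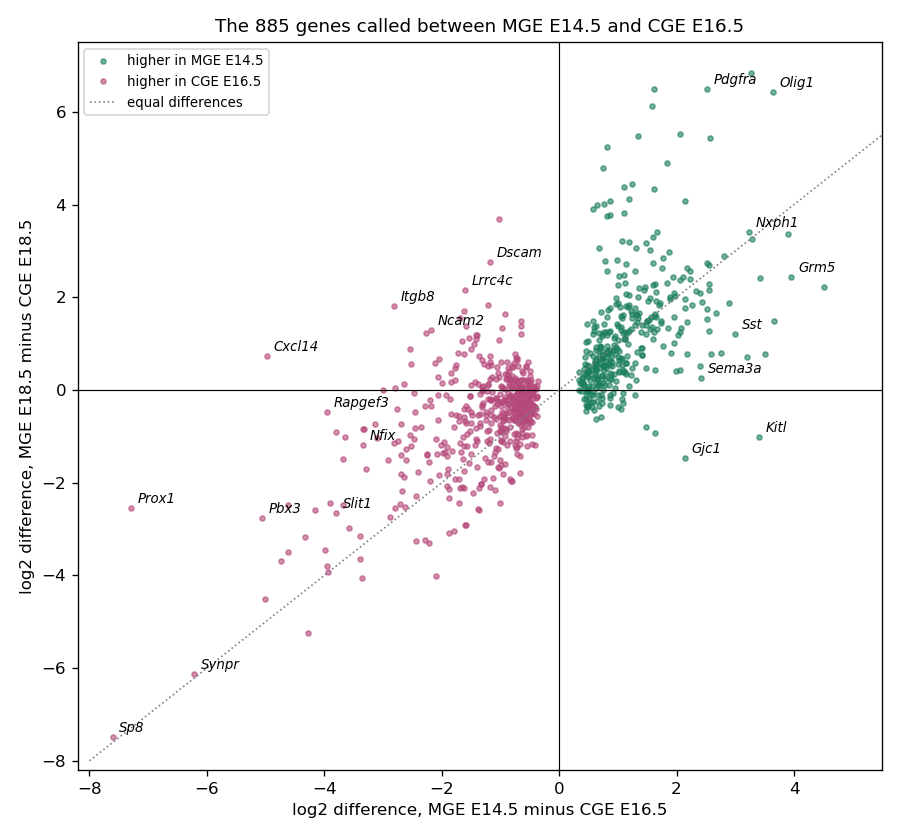
The log2 difference between MGE and CGE cells at E18.5 (y axis) against that between MGE E14.5 and CGE E16.5 (x axis) for the 885 genes called early, 1 point a gene, with a dotted line where both are equal. Sp8 and Synpr lie on the line, whereas Itgb8, Ncam2, Dscam and Lrrc4c (whose early call was lost in 4 of 25 other settings) are higher in CGE cells early and in MGE cells at E18.5, and Gjc1 the reverse.

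The change of the difference was tested in the same fit and called for 8.64% of all genes, and 171 of the CGE-high genes changed, 161 of them towards a smaller or opposite difference. Of the MGE-high genes 84 changed, 39 of them in that way. Both lists were picked by the early difference, which also enters the change, so the choice itself favours smaller differences at E18.5. Itgb8 rose in the MGE mean from 5.81 at E14.5 to 9.01 at E18.5 and fell in the CGE mean from 8.62 to 7.20, so that it was 1.81 higher in MGE cells at E18.5 (change 4.61 ± 0.28, adjusted p = 2.02e-06). Ncam2 (1.29 at E18.5) and Dscam (2.76) crossed in the same direction, as did Nrp2 (1.38), whose CGE mean went from 10.24 to 6.74. Cxcl14 went from 4.69 to 8.38 in MGE and from 9.67 to 7.64 in CGE cells and was not called at E18.5 (0.73, adjusted p = 0.33). Gjc1 crossed the other way, from 9.37 to 6.61 in MGE and from 7.23 to 8.07 in CGE cells (-1.47 at E18.5). The MGE means of Kitl went from 9.10 to 4.98 and of Sema3a from 10.36 to 7.99, beside CGE means of 6.0 and 7.74 at E18.5, where neither was called.

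**Figure D5:**
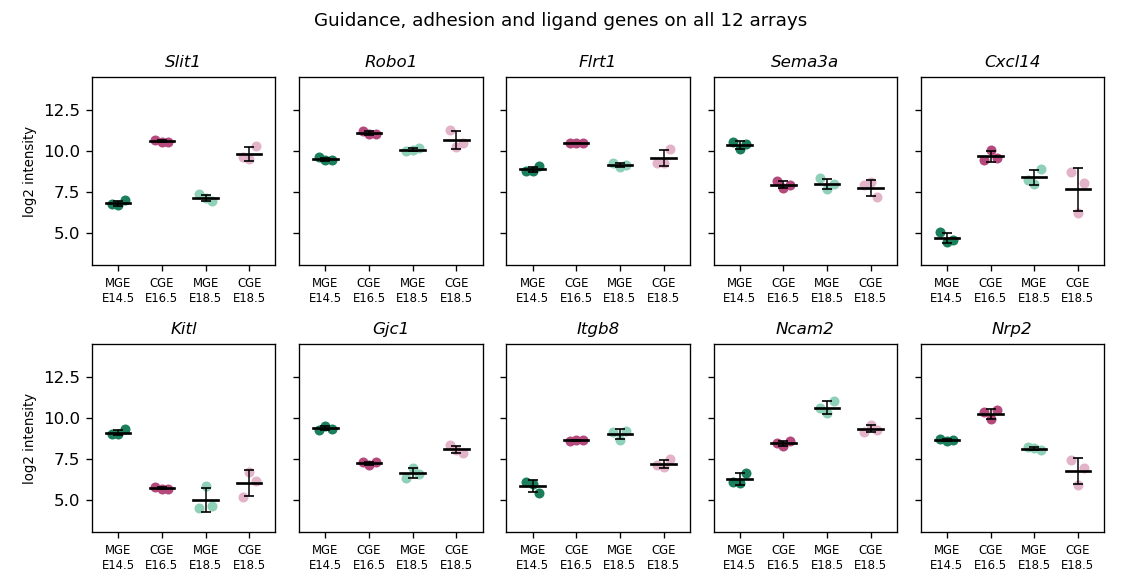
Log2 intensity (y axis) of guidance, adhesion and ligand genes on all 12 arrays by group (x axis), with a point for each array and the mean ± SD in black. Slit1 stays higher in CGE cells on both days, Kitl and Sema3a have their highest mean in MGE cells at E14.5, and Itgb8, Ncam2 and Nrp2 change their order between the lineages.

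The transcription factor families differed in the same respect. In Prox1, the homeodomain factor of the CGE lineage, the early difference of -7.30 ± 0.19 was -2.55 at E18.5, as the MGE mean went from 4.55 to 9.02. Vax1 was 0.21 and Zeb1 0.28 at E18.5, both not called, with MGE means of 10.14 and 11.10 against 8.36 and 8.0 at E14.5. The difference of Rapgef3 went from -3.96 to -0.48 in the same way, as the MGE mean rose from 4.83 to 8.33 beside CGE means of 8.79 and 8.81. The difference of Chrna7, in contrast, went from -2.48 to -0.07 with the CGE mean, which fell from 9.13 to 6.84.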

How the data were processed

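RNA of sorted cells was measured on 12 Affymetrix Mouse430_2 arrays in 4 groups of 3. The log2 values were deposited by the authors after background correction and normalisation in Bioconductor, and the submitters' processing notes name MAS5, so the algorithm is not settled. No depth exists for arrays, and the number of arrays limits the precision. No detection calls were used, so differences of dim genes may be understated. Of 27060 probe sets other than controls, the platform annotation gave a single gene symbol for 22339, several for 571 and no symbol for 4150. A probe set was kept above the 40th percentile of its array on at least 3 of 12 arrays, and the brightest kept probe set on average stood for its gene. One mean per group was fitted with limma 3.58.1 (R 4.3.3; 8 residual degrees of freedom), with two-sided tests adjusted over 8795 genes. The script was tested on simulated data.

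Members, families and marker lists were chosen with earlier results of these data known, and motifs after values were seen. Families were matched by symbol. Named genes were drawn from the 15 largest non-overlapping calls in each direction and, per family, up to 4 calls in each direction. Genes of the study's question, the 8 largest changes by E18.5 each way and marker genes were added. Not all genes under these rules are described, so some of the largest differences are left out. Dll1, Nfic, Flrt3, Ntn4, Negr1, Dscam, Cbln1, Slitrk4, Slitrk5, Neto1, Grik2, Gria4 and Gria3 were named after their values were seen. The labels call the 3 arrays of a group biological replicas, and the sources used here do not say how pools were divided, so p-values measure only the spread between these arrays, which may be technical. Alternatives covered arrays, filters, probe set choice, normalisation, variance models and each array left out. Replicate numbers did not pair the groups (r = 0.077, 0.247 and 0.213 for equal numbers).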

Additional observations from a re-analysis of the deposited data

Results flagged for a closer look

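The genes below were called between MGE E14.5 and CGE E16.5 cells and had a difference that itself changed by E18.5 in limma, at an adjusted p under 0.05 for the change. Values are the E18.5 difference minus the early one on the log2 scale, with 3 arrays a group, so that a positive value is a shift towards MGE cells. Embryonic day differs between the early groups and not at E18.5, and its part in these changes was not tested. The early difference both picked the genes and enters the change, so this choice favours changes towards a smaller difference.

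The order of the lineages turned, with a call on both sides, in adhesion, guidance and channel genes and a phosphodiesterase, namely Dscam (3.94), Gjc1 (-3.61), Itgb8 (4.61), Kcns2 (2.40), Lrrc4c (3.76), Ncam2 (3.48), Nrp2 (2.96) and Pde4b (2.71). Genes higher in CGE cells early and not called at E18.5 included the guidance, adhesion and matrix genes Flrt1 (1.21), Flrt3 (1.26), Ntn4 (1.33), Plxna4 (2.03), Plxnc1 (1.51), Cxcl14 (5.71), Cdh4 (2.77), Igsf8 (1.24), Negr1 (1.38), Slitrk3 (0.95), Smoc1 (2.21), Spon1 (2.84), Adamts3 (2.35) and Timp2 (1.29). Others of that kind were the factors and remodeller Nfia (1.95), Nfix (2.16), Vax1 (1.98), Zeb1 (2.35) and Chd7 (0.94), and the signalling and receptor genes Prickle1 (1.37), Rapgef3 (3.48), Adcy2 (1.37), Adcyap1r1 (2.15), Chrna7 (2.41) and Gabra2 (1.29).

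Genes still called higher in CGE cells at E18.5, with a smaller difference, were Prox1 (4.75), St18 (2.64), Pbx3 (2.30), Sall1 (2.14), Nfib (1.33), Id4 (0.83), Grin2d (2.21), Pde1c (1.65), Fat4 (1.56), Rgs16 (1.29), Wnt5a (1.17), Slit1 (1.14) and Jag1 (0.88), while Mfng (-0.64) had a larger one. On the MGE side, Kitl (-4.43), Grik1 (-2.50), Sema3a (-2.18), Dock9 (-1.64), Cdkn1c (-1.59) and Cbln1 (-1.27) were not called at E18.5, and Map3k20 (-1.79) was called with a smaller difference. The difference was larger at E18.5 in Pdgfra (3.97), Gria3 (3.20), Cntn1 (2.86), Olig1 (2.78), Ccnd1 (1.69) and Id3 (1.45).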

How the results depend on the processing

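Each count was recomputed in 25 other settings, and direction held better than the number of calls. Of the 885 called genes, 1 changed sign with the mean of a gene's probe sets and 4 with its most variable probe set. In the other settings 0 did, among the genes kept (each fit by limma). The 60th percentile filter kept 684 of the 885, and the filter set on the 6 early arrays kept 812. Meis1, Adcy1, Fbln2, Pcdh18 and Prickle1 were among those that the second filter did not keep. The 366 and 519 calls were 818 and 996 with array weights, 224 and 322 with MGE E14.5 replicates 1 and 2 averaged, and 208 and 317 without both replicates 3, a setting chosen after the data were seen. With 1 array left out they ran from 214 to 423 and from 318 to 583, the same call at E18.5 in 324 to 505 genes, and a changed difference in 535 to 895, against 468 and 760. The fewest calls came without MGE E14.5 replicate 1, and with it or replicate 2 left out 528 and 557 of the 885 were called the same way. The count of changed differences was 497 with the filter set on the 6 early arrays. With the replicate block, the counts were 344 and 484, although the labels do not say that replicate numbers pair the groups. Of 153 called genes named here that were followed through the settings, 132 were called in every setting that kept them. The cause of these changes was not tested. Dim genes limit the sizes given, since values near background compress differences.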
